A study of Homo sapiens with 6 samples.

Results

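Cadherins are calcium-dependent adhesion molecules that bind a cadherin on the next cell through their extracellular repeats. The short cytoplasmic tail of a classical cadherin binds p120-catenin and β-catenin, and α-catenin links this complex to actin. Epithelial cells carry E-cadherin, and its replacement by cadherins of mesenchymal cells is a well-known feature of epithelial-mesenchymal transition (EMT) in breast cancer. The genes described here are 9 of the 23228 gene symbols in the count tables, chosen by symbol: CDH1, CDH2, CDH3 and CDH4 (type I cadherins), CDH5, CDH6, CDH11 and CDH24 (type II cadherins), and CDH13 (T-cadherin). CDH13 belongs to the same family but is held in the membrane by a lipid anchor and lacks the tail that binds catenins, so it is not a classical cadherin in the strict sense. The 9 genes were put together with results of the comparison below already known, CDH11 above all. Their differences between groups are therefore given as a description, without p-values, and the calls counted below are no evidence about them.

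The RNA-seq libraries came from MDA-MB-231, a human cell line established from a triple negative breast cancer (TNBC), in 3 replicates of each of 2 groups. Control shRNA cells stably carried a non-targeted shRNA, and PELP1-KD cells stably carried an shRNA against PELP1, a coregulator of nuclear receptors that also acts in ribosome biogenesis. Each group comes from a single lentiviral shRNA construct and was kept by puromycin selection in RPMI medium with serum. The sources do not say whether the replicates were selected or cultured separately, so the spread between them may be technical. Counts on genes summed to between 17304864 and 23132102 per library, and 3 counts, taken as the floor of detection, corresponded to between 0.127 and 0.177 CPM (counts scaled to the library size, with TMM factors). Values per library are given in the order of replicates 1, 2 and 3, and SE is the standard error of a log2FC. PELP1 was counted 968, 1274 and 1069 times in the control libraries and 557, 637 and 712 times in the knockdown libraries. All PELP1-KD replicates were below all control replicates, at a log2FC of -0.97 (SE 0.055, edgeR adjusted p = 1.48e-11).

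The cells carried the RNA of a mesenchymal-like TNBC line. All 6 mesenchymal genes examined had enough counts to be tested, and VIM (vimentin) was the most abundant, at 2220 CPM ± 116 (SD, n = 3) with the control shRNA and 1922 CPM ± 11.2 (SD, n = 3) with the PELP1 shRNA. These genes did not move one way, since VIM, CAV1, AXL and CD44 were lower in PELP1-KD cells at an adjusted p-value below 0.05 in edgeR, with log2FC between -0.55 and -0.13, while FN1 (fibronectin) was higher by 0.38 and SPARC by 1.57. Among luminal receptor genes, ESR1 and PGR had at most 3 counts in every replicate, while ERBB2 had between 1930 and 2727 counts and GATA3 between 114 and 190. FOXA1, a luminal transcription factor, was counted 11, 26 and 20 times in the control libraries and 7, 0 and 5 times in the knockdown libraries. Keratin genes were also present, with KRT8 at 284 CPM ± 6.87 and KRT18 at 281 CPM ± 3.88 (SD, n = 3) in control cells. Of the 5 epithelial genes, KRT8, KRT18 and KRT19 were lower in PELP1-KD cells by the same test, with log2FC of -0.13, -0.21 and -0.95, KRT7 was higher by 0.23, and EPCAM did not pass. Of 7 endothelial genes, 3 (TEK, CLDN5 and EMCN) had at most 3 counts in every replicate, and of 5 leukocyte genes 4 did. Among the other endothelial genes, KDR was lower in PELP1-KD cells, with between 22 and 69 counts per replicate (log2FC -1.03, SE 0.217, edgeR adjusted p = 5.53e-04), and TIE1 had between 7 and 22 counts. VWF was counted 1, 6 and 0 times in the control libraries and 12, 20 and 16 times in the knockdown libraries. FOXA1 and VWF passed the filter on low counts through the group where each was high, so no test is given for them.

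Among the 9 genes, CDH4 and CDH24 had the most RNA, and the gene best known for loss in EMT, CDH1, was barely detected. Levels of different genes were compared as RPKM, that is CPM per kilobase of exon. CDH4 (R-cadherin) had 8.04 RPKM ± 0.286 (SD, n = 3) in control cells and made up 50.5% ± 1.95 of the summed RPKM of the 9 genes. CDH24, a type II cadherin, followed with 6.70 RPKM ± 0.676 (SD, n = 3), or 42% ± 2.51. CDH11 (OB-cadherin), known from osteoblasts and other mesenchymal cells, was next with 0.95 RPKM ± 0.0581 (SD, n = 3). The ranges of these 3 genes over the control replicates did not overlap, and each of the other 6 genes stayed at or below 0.131 RPKM in every control replicate. The share of CDH11 depends on the exon length used. It was 5.98% ± 0.645 of the sum with all annotated exons joined, and 10.1% with the longest annotated transcript. CDH3 and CDH2 came next, and their ranges overlapped, as did those of CDH2 and CDH5, of CDH5 and CDH1, and of CDH1 and CDH13. CDH6 had no count in any control replicate, for which the exact 95% Poisson interval reaches 0.0643 CPM, and the floor of 3 counts over the group is 0.0523 CPM.

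**Figure D1:**
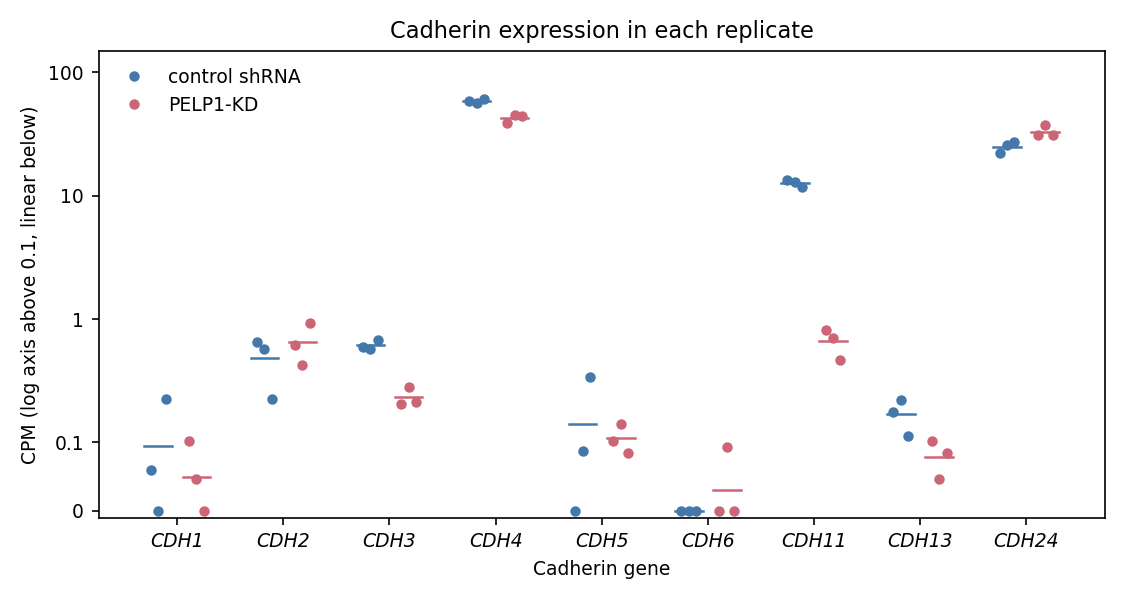
Expression of the 9 cadherin genes in each replicate, in CPM on an axis that is logarithmic above 0.1 and linear below. Points are the 3 control shRNA (blue) and 3 PELP1-KD (red) replicates, and lines are their means. CDH11 lies between 11.9 and 13.4 CPM in control cells and between 0.467 and 0.821 CPM in PELP1-KD cells, while CDH1, CDH5, CDH6 and CDH13 lie near 0 in both groups.

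CDH11 was 19.2 times lower in PELP1-KD cells by mean CPM. It was counted 227, 292 and 211 times in the control libraries and 16, 15 and 11 times in the knockdown libraries. The control replicates lay far above the PELP1-KD replicates, with no overlap. In CPM, the mean was 12.7 ± 0.778 (SD, n = 3) with the control shRNA and 0.664 ± 0.18 (SD, n = 3) with the PELP1 shRNA. The log2FC was -4.27 (SE 0.166, 95% interval -4.62 to -3.92), rank 4 from the lowest among the 12796 genes tested. This difference is the value for which CDH11 stands in the list. Each PELP1-KD replicate still had more than 3 counts of CDH11, so the gene remained detectable. In RNA from whole cultures, fewer cells with CDH11 RNA and less CDH11 RNA per cell cannot be told apart.

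CDH4, the most abundant of the 4 type I cadherins, was also lower in PELP1-KD cells, by a much smaller fold. It was counted 997, 1297 and 1088 times in the control libraries and 758, 967 and 1041 times in the knockdown libraries. After scaling, it had 59.1 CPM ± 2.10 (SD, n = 3) with the control shRNA and 42.8 CPM ± 3.44 (SD, n = 3) with the PELP1 shRNA, without overlap. The log2FC of CDH4 was -0.46 (SE 0.0585, 95% interval -0.58 to -0.34).

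CDH24 went the other way. It was counted 377, 587 and 483 times in the control libraries and 609, 795 and 726 times in the knockdown libraries. Its mean was 25.1 CPM ± 2.53 (SD, n = 3) with the control shRNA and 33.1 CPM ± 3.60 (SD, n = 3) with the PELP1 shRNA. The lowest PELP1-KD replicate, at 30.8 CPM, was above the highest control replicate, at 27.2 CPM. The log2FC was 0.40 (SE 0.0804, 95% interval 0.23 to 0.56).

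With these opposite differences, the order of CDH4 and CDH24 was reversed between the groups. In PELP1-KD cells CDH24 came first with 8.83 RPKM ± 0.959 (SD, n = 3) and CDH4 second with 5.82 RPKM ± 0.468 (SD, n = 3). The ratio of CDH24 to CDH4 in RPKM was 0.742, 0.888 and 0.871 in the control libraries and 1.58, 1.61 and 1.37 in the knockdown libraries. All control replicates thus had more CDH4 than CDH24, and all PELP1-KD replicates had more CDH24 than CDH4. CDH4 made up 39.1% ± 2.03 and CDH24 59.2% ± 2.23 of the summed RPKM in PELP1-KD cells, and CDH11 0.335% ± 0.101, or 0.598% with the longest annotated transcript. The summed RPKM of the 9 genes was between 15.2 and 16.7 in control replicates and between 13.9 and 16.3 in PELP1-KD replicates, so these ranges overlapped. Summed CPM, which does not correct for exon length, was 96.1, 97.2 and 102 in the control libraries and 72.1, 84.3 and 76.8 in the knockdown libraries, lower in every PELP1-KD replicate. In PELP1-KD cells CDH2 was next, at 0.133 RPKM ± 0.0523 (SD, n = 3), and CDH11 after it, with a range that overlapped that of CDH3. The order of CDH2 and CDH11 rests on exon length (4950 and 13381 bases with all exons joined). In CPM they were alike in PELP1-KD cells, at 0.657 ± 0.259 and 0.664 ± 0.18 (SD, n = 3).

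**Figure D2:**
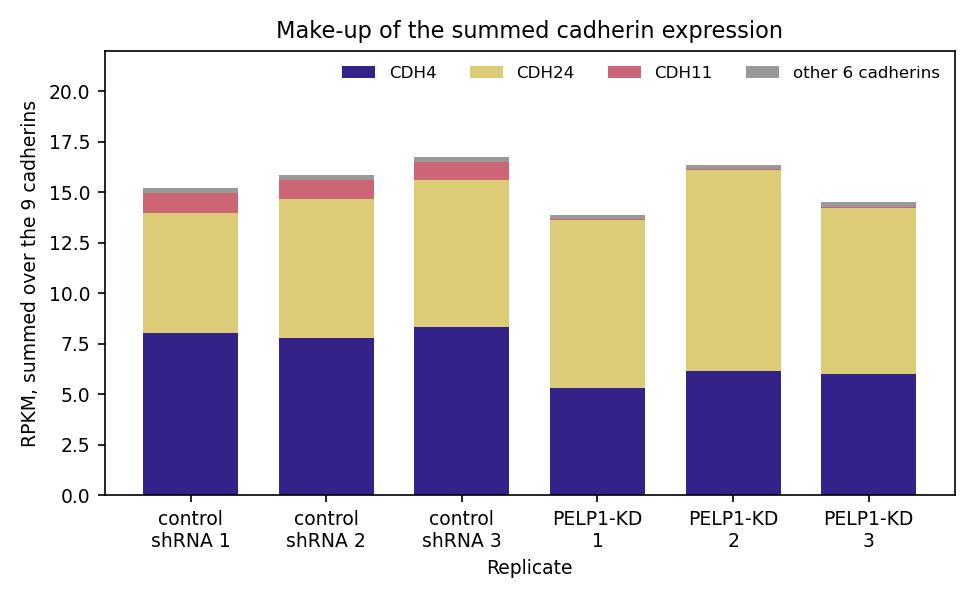
Summed RPKM of the 9 cadherins in each replicate (bars from 0), divided into CDH4, CDH24, CDH11 and the other 6 genes. The totals lie between 13.9 and 16.7 RPKM, and the CDH24 part is smaller than the CDH4 part in the 3 control replicates and larger in the 3 PELP1-KD replicates.

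The cadherins used to describe EMT had few counts. CDH1 (E-cadherin), the main cadherin of epithelia, was counted 1, 0 and 4 times in the control libraries and 2, 1 and 0 times in the knockdown libraries. Summed over a group, this was 0.0871 CPM in control cells (exact 95% Poisson interval 0.0283 to 0.203) and 0.0466 CPM in PELP1-KD cells (0.00961 to 0.136), where the intervals cover counting error only. A difference in CDH1 was not detectable at this depth. CDH2 (N-cadherin), the cadherin of neural and many mesenchymal cells, was counted 11, 13 and 4 times in the control libraries and 12, 9 and 22 times in the knockdown libraries. The groups overlapped, and the log2FC of CDH2 was 0.45 (SE 0.40, 95% interval -0.39 to 1.28). CDH3 (P-cadherin), of basal epithelial cells, was counted 10, 13 and 12 times in the control libraries and 4, 6 and 5 times in the knockdown libraries. Its groups did not overlap, and the log2FC was -1.37 (SE 0.404, 95% interval -2.21 to -0.52). CDH3 passed the filter on low counts through its control replicates alone, so a difference was built into its being tested. DESeq2 gave CDH3 a log2FC of -1.39 that did not pass its threshold.

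The remaining members had almost no reads. CDH5 (VE-cadherin), the cadherin of endothelial junctions, was counted 0, 2 and 6 times in the control libraries and 2, 3 and 2 times in the knockdown libraries. CDH6 (K-cadherin), first known from kidney, had 2 counts in PELP1-KD replicate 2 and none in the other replicates. CDH13 was counted 3, 5 and 2 times in the control libraries and 2, 1 and 2 times in the knockdown libraries. The CPM of CDH13 did not overlap between groups, but its exact 95% Poisson intervals did, at 0.0835 to 0.32 CPM in control cells and 0.0252 to 0.181 CPM in PELP1-KD cells.

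In all, 5 of the 9 members (CDH2, CDH3, CDH4, CDH11 and CDH24) passed the filter on low counts, and CDH1, CDH5, CDH6 and CDH13 did not. At an adjusted p-value below 0.05 in the edgeR fit to all genes, CDH4 and CDH11 were lower and CDH24 was higher in PELP1-KD cells. CDH3 was also below this threshold, but only after a filter that its control replicates alone had passed. Of the 12796 genes tested, 24.2% were lower and 22.7% higher by this criterion. These are 3103 and 2904 genes, and with libraries scaled by their totals alone 2419 were lower and 3817 higher, so the balance of directions over all genes turns with the scaling. Past a log2FC of -1 as well were CDH11 and, with the same limit, CDH3, against 1.34% of the genes tested. Groups did not overlap in 4 of the 5 tested members and in 55% of the genes tested. Since the members were chosen with this comparison known, nothing is read from these counts.

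**Figure D3:**
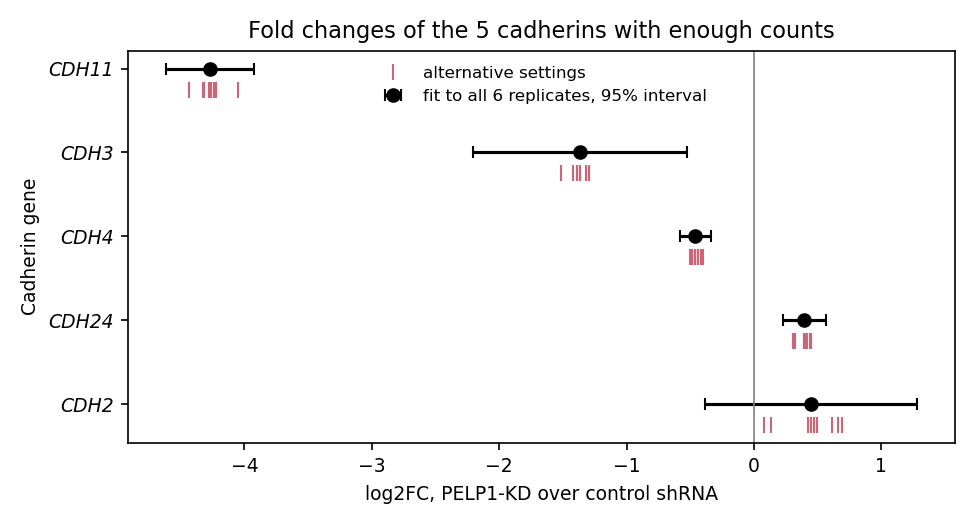
The log2FC (PELP1-KD over control shRNA) of the 5 cadherins that passed the filter, with 95% intervals from the edgeR fit to all 6 replicates (black) and values under the alternative settings (red ticks). CDH11 stays between -4.44 and -4.05 and CDH24 between 0.30 and 0.45, while the interval of CDH2 spans 0.

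CDH11, CDH5, CDH3, CDH1 and CDH13 are 5 cadherin genes of chromosome 16, with CDH3 and CDH1 side by side, while CDH4 is on chromosome 20, CDH24 on chromosome 14, CDH2 on chromosome 18 and CDH6 on chromosome 5. To see whether genes near a cadherin differed likewise, the 5 nearest tested protein-coding genes on each side were taken by gene order. This comparison was chosen after the cadherin values were seen. Untested genes were passed over and distances were not considered, so a neighbour here need not be the adjacent gene. Around CDH11, 1 of these 10 neighbours was lower and 4 were higher at an adjusted p-value below 0.05, with log2FC between -0.33 and 0.39. By this criterion, 24.2% of all tested genes were lower and 22.7% higher. The nearest tested genes on either side of CDH11 were GOT2, an aminotransferase (log2FC -0.03, SE 0.0328, edgeR adjusted p = 0.443), and TK2, mitochondrial thymidine kinase (log2FC 0.30, SE 0.0696, edgeR adjusted p = 0.00132). No neighbour came near the value of CDH11, but CDH11 is listed for that value, so this contrast follows from the choice. Around CDH4, 3 neighbours were lower and 2 higher, with log2FC between -0.45 and 0.35. The 3 lower genes were the nearest tested genes before CDH4, with PPP1R3D first (log2FC -0.45, SE 0.12, edgeR adjusted p = 0.00382). Untested genes between them were not considered. Around CDH24, 1 was lower and 3 were higher, with log2FC between -0.10 and 0.37. Around CDH3, 4 of the 10 neighbours were lower and the other 6 did not pass the threshold, with log2FC between -1.02 and 0.14. The 5 lower neighbours of CDH1 were the same 4 genes and CDH3 itself, a chosen member tested through its control replicates alone. The call of CDH3 was also lost in DESeq2. One of the 4 genes, TMCO7, fell from 24.5 to 12.1 CPM (log2FC -1.02, SE 0.073, edgeR adjusted p = 4.98e-10).

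**Figure D4:**
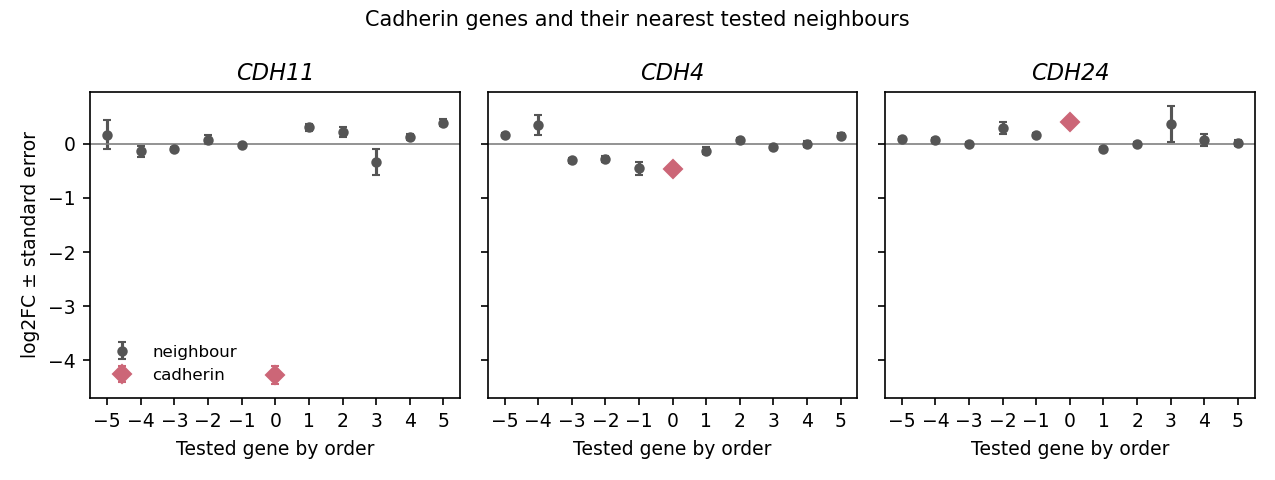
The log2FC with its standard error of CDH11, CDH4 and CDH24 (red diamonds) and of the 5 nearest tested protein-coding genes on each side (grey), by gene order. CDH11 at -4.27, the value for which it was chosen, lies below neighbours between -0.33 and 0.39.

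The genes whose pattern over the 6 replicates was most like that of CDH11, by Euclidean distance of centred log2 CPM, were AFAP1-AS1, SLCO4A1, ZNF521, CADM1 and ROBO1, with distances of 1.37, 1.39, 1.55, 1.65 and 1.68 against a median of 5.06 over all tested genes. CADM1, an adhesion molecule of the immunoglobulin type, was counted 12, 24 and 16 times in the control libraries and 0, 2 and 0 times in the knockdown libraries. ROBO1, a receptor for Slit proteins, was counted 103, 143 and 136 times in the control libraries and 7, 19 and 18 times in the knockdown libraries. SLCO4A1, an organic anion transporter, went from 5.30 CPM ± 0.253 to 0.542 CPM ± 0.0261 (SD, n = 3), and ZNF521, a zinc finger protein, from 1.63 CPM ± 0.395 to 0.125 CPM ± 0.0548 (SD, n = 3). AFAP1-AS1 is an antisense RNA gene, and the sources do not say whether reads were counted by strand, so its value is uncertain. The same limit holds for ADAM17, CLSTN3, CTNNA1, CTNNAL1, ESRP2, SHROOM3, TMCO7 and ZEB1, described in other paragraphs, and for CDH13, each of which overlaps another gene of the count tables, in the case of ZEB1 its antisense gene ZEB1-AS1. Overlaps were not checked for ADAM10, CLSTN1, DSG2, FAT1, the marker genes, or neighbouring genes other than TMCO7 and the members. In AFAP1-AS1, SLCO4A1, ZNF521, CADM1 and ROBO1 the knockdown libraries lay below the control libraries, which the choice by likeness to CDH11 brings about.

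The tested genes of the catenin list, which holds catenins, their relatives and an inhibitor of β-catenin, had log2FC between -0.19 and 0.67. Of 11 genes in this list, 8 were tested, and none passed a log2FC of 1 in either direction. At an adjusted p-value below 0.05, 3 were lower and 3 higher in PELP1-KD cells, or 75% of those tested. Of all genes tested, 24.2% were lower and 22.7% higher. The median log2FC was 0.13, where that of all tested genes was 0.0014. CTNNA1 (α-catenin) fell from 758 CPM ± 27.1 to 678 CPM ± 5.35 (SD, n = 3), a log2FC of -0.16 (SE 0.0288, edgeR adjusted p = 1.22e-04). CTNNB1 (β-catenin) had 498 CPM ± 10.2 and 507 CPM ± 6.59 (SD, n = 3), a log2FC of 0.03 (SE 0.0283, edgeR adjusted p = 0.487). JUP (plakoglobin), which can take the place of β-catenin, rose from 23.5 CPM ± 2.02 to 32.3 CPM ± 1.79 (SD, n = 3), a log2FC of 0.46 (SE 0.0704, edgeR adjusted p = 2.16e-05). CTNNAL1, an α-catenin relative, and PKP4, a p120 relative, fell by 0.19 and 0.09 on the log2 scale, the call of PKP4 being lost under several alternative settings, and CTNNBIP1, an inhibitor of β-catenin, rose by 0.23. CTNND1 (p120-catenin) was counted 25, 36 and 19 times in the control libraries and 45, 37 and 61 times in the knockdown libraries, a log2FC of 0.67 (SE 0.222, edgeR adjusted p = 0.0176). This value is uncertain because the readthrough gene TMX2-CTNND1 overlaps CTNND1, and reads in shared exons may have been counted on neither gene. Its call was also lost in DESeq2, without PELP1-KD replicate 1 or 3 and without control replicate 3. TMX2-CTNND1 was listed at 0 in all replicates.

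Among 20 partners of adherens junctions, 19 were tested, with 7 lower and 7 higher (73.7%) and a median log2FC of -0.02. The shares over all tested genes were 24.2% lower and 22.7% higher. PTPN14, a tyrosine phosphatase found at junctions, fell from 249 CPM ± 7.57 to 156 CPM ± 3.40 (SD, n = 3), a log2FC of -0.68 (SE 0.0355, edgeR adjusted p = 3.76e-12). The nectin genes NECTIN1 and NECTIN3, listed as PVRL1 and PVRL3, fell by 0.42 and 0.26 on the log2 scale. SHROOM3, which organises apical actin, rose from 33.6 CPM ± 1.29 to 47.4 CPM ± 2.01 (SD, n = 3), a log2FC of 0.49 (SE 0.0571, edgeR adjusted p = 5.18e-07). TJP1 (ZO-1), a scaffold of tight junctions, rose by 0.25 on the log2 scale.

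The other genes of the cadherin superfamily ranged from silent to far more abundant than any of the 9 cadherins. Of 50 such genes, 16 were tested, and 30 had at most 3 counts in every replicate. The most abundant per length were CLSTN1 (calsyntenin-1), with a mean of 42.1 RPKM in control and 39.0 RPKM in PELP1-KD cells, DSG2 (desmoglein-2, a cadherin of desmosomes), with 38.4 and 36.1 RPKM, and FAT1, with 22.9 and 23.3 RPKM. CLSTN1 was lower by a log2FC of -0.11 (SE 0.0316, edgeR adjusted p = 0.00746), and DSG2 and FAT1 did not pass the threshold. The 50 genes include 14 further CDH-numbered genes, of which 9 had no count at all and none had more than 5 counts in any replicate. Of the 16 tested, 5 were lower and 3 higher (50%), with a median log2FC of -0.10. This is near the shares over all tested genes, 24.2% lower and 22.7% higher. FAT3, a giant cadherin, was counted 136, 178 and 131 times in the control libraries and 404, 424 and 522 times in the knockdown libraries. It rose by a log2FC of 1.43 (SE 0.0867, edgeR adjusted p = 3.68e-11), and every PELP1-KD replicate was above every control replicate. PCDH18, a protocadherin, was counted 5, 7 and 5 times in the control libraries and 13, 17 and 13 times in the knockdown libraries. It passed the filter through the PELP1-KD replicates alone, so a difference was built into its being tested, and its call was lost in DESeq2 and without PELP1-KD replicate 2. CLSTN3, a calsyntenin, rose by 0.46. PCDH20 was lower, at a log2FC of -0.91 (SE 0.174, edgeR adjusted p = 2.35e-04), as were PCDH7 at -0.53 and FAT4 at -0.25, the last no longer past the threshold under several alternative settings. With libraries scaled by their totals alone, 2 genes of this list were lower and 5 higher.

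Of 20 genes for the processing of cadherins, 18 were tested, with 7 lower and 3 higher (55.6%) and a median log2FC of -0.09. Over all tested genes, 24.2% were lower and 22.7% higher. FURIN, a proprotein convertase of the enzyme family that cuts the cadherin precursor, rose from 154 CPM ± 0.551 to 216 CPM ± 8.44 (SD, n = 3), a log2FC of 0.49 (SE 0.0365, edgeR adjusted p = 8.81e-10). PCSK6, another convertase, fell by 0.47 on the log2 scale, a call lost in DESeq2, without PELP1-KD replicate 1 and without control replicate 3. Among the proteases that release ectodomains, ADAM17 fell from 79.7 CPM ± 0.831 to 54.1 CPM ± 2.59 (SD, n = 3), a log2FC of -0.56 (SE 0.0483, edgeR adjusted p = 7.8e-09), and ADAM15 fell by 0.29. ADAM10, the main sheddase of E-cadherin and N-cadherin, had a log2FC of -0.08 (SE 0.0398, edgeR adjusted p = 0.11) and was added here after its value was seen. APH1B, a subunit of γ-secretase, rose by 0.43, and NUMBL, an adaptor of endocytosis, by 0.19.

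Of 17 transcription factors and splicing factors known for the control of cadherin genes in EMT, 6 were tested, and 9 had at most 3 counts in every replicate. SNAI1 (Snail), a repressor of CDH1, was counted 84, 106 and 80 times in the control libraries and 169, 225 and 202 times in the knockdown libraries. It rose by a log2FC of 0.98 (SE 0.12, edgeR adjusted p = 1.23e-06). ZEB1, another repressor of CDH1, fell from 78.9 CPM ± 6.25 to 60.7 CPM ± 0.911 (SD, n = 3), a log2FC of -0.38 (SE 0.0534, edgeR adjusted p = 7.19e-06). ZEB2 and ESRP2, an epithelial splicing factor, fell by 0.28 and 0.29 on the log2 scale, but ZEB2 had groups that overlapped, and both lost their call under several alternative settings. The median log2FC of the tested factors was -0.21.

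**Figure D5:**
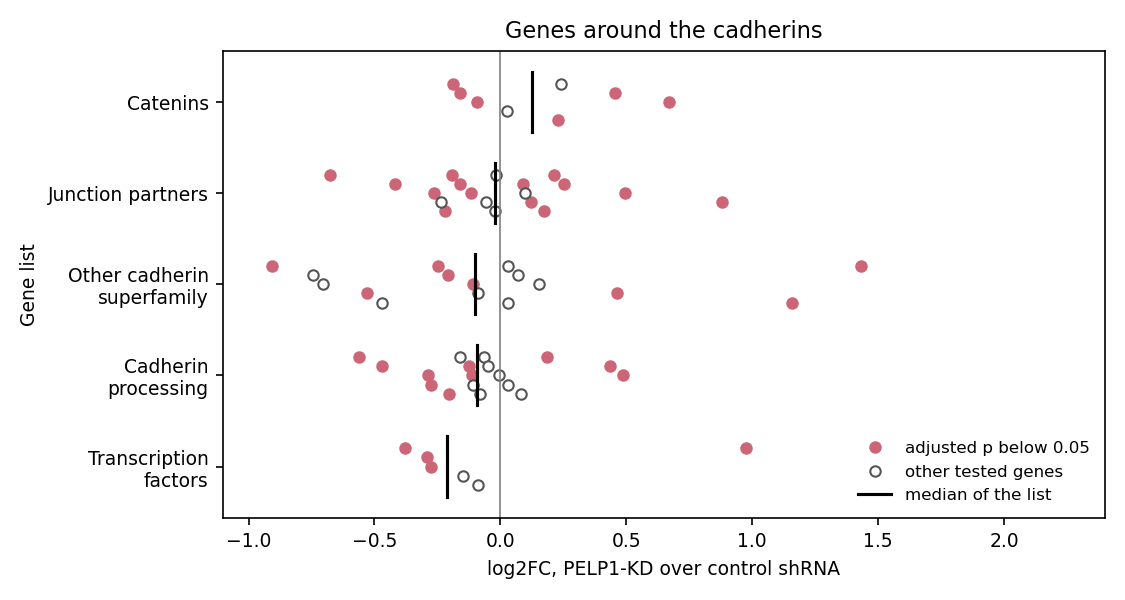
The log2FC (PELP1-KD over control shRNA) of every tested gene in the 5 lists around the cadherins. Red points passed an adjusted p-value of 0.05 in edgeR, open points did not, and black lines are the medians, which lie between -0.21 and 0.13.

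The markers of fibroblasts and osteoblasts, cell types in which CDH11 is known, did not move with CDH11 as a group. Of 8 such genes, COL1A1 and PDGFRB rose by 1.61 and 1.53 on the log2 scale, RUNX2 fell by 0.24, and the other 5 were not tested, with DCN at 0 in all replicates. Per length, RUNX2, an osteoblast transcription factor, was above PDGFRB, a receptor of mesenchymal cells, in control cells (means of 5.14 and 2.20 RPKM) and below it in PELP1-KD cells (4.36 and 6.38 RPKM). The summed level of the 8 marker genes was 62.1, 65.7 and 63.6 CPM in the control libraries and 99.0, 104 and 96.3 CPM in the knockdown libraries, higher where CDH11 was lower. The part of these markers in the CDH11 difference was not tested.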

How the data were processed

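RNA-seq of 6 MDA-MB-231 libraries, 3 per group, was used. The authors deposited whole-number read counts per gene symbol for each replicate, without normalization and without pooling. The submitters' processing notes name bcl2fastq, TopHat2, SAMtools, HTSeq and hg19. Annotation, versions and strand setting are not given in the sources used here. Reads with several alignments (32.5% to 32.9% per replicate), outside genes (7.64% to 8.19%) or on overlapping genes (0.657% to 0.688%) were counted on no gene and left out of library sizes.

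Counts were analysed in R 4.3.3 with edgeR 4.0.16: filterByExpr (minimum 10 counts, 12796 genes kept), TMM factors (0.978 to 1.02), quasi-likelihood test on 2 groups and Benjamini-Hochberg adjustment over the kept genes. Standard errors are the absolute log2FC over the square root of F. RPKM used the joined exons of GENCODE 29 (GRCh38), with lengths only and no coordinates taken. Gene order and overlaps came from RefSeq by name. Fits were tested on simulated data. Replicates of a group differed beyond sampling noise (chi-square per degree of freedom 1.47 to 4.11).

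Members and lists were chosen with earlier results of these data known. The lists were written from general knowledge. Genes named are the members, PELP1, CTNNA1, CTNNB1, CTNND1, JUP, up to 3 genes per direction and list with the largest significant log2FC, and the 5 genes nearest CDH11, with marker genes from fixed lists. Neighbouring genes, ADAM10, CLSTN1, DSG2 and FAT1 were added after their values were seen, and 1 gene that the rule picks is not reported here. Alternatives were RLE, library totals, DESeq2 1.42.0, limma 3.58.1 (voom), other filters, the replicate block, leaving out each replicate and transcript length. No cadherin sequence is shown.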

Additional observations from a re-analysis of the deposited data

How the results depend on the processing

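CDH11, CDH4, CDH24 and PELP1 kept their direction and their side of the threshold under all 13 alternatives, with each replicate left out giving a log2FC of -4.44 to -4.05 for CDH11 and -0.99 to -0.94 for PELP1. CDH2 varied from 0.08 to 0.69 and never passed. CDH3, tested through its control replicates alone, did not pass in DESeq2 and was not tested with at least 10 counts in every replicate. Library totals alone moved the median log2FC of all genes to 0.051. The count of lower genes in the other cadherin superfamily was 3 in DESeq2 and 2 with library totals (5 higher with library totals). With a replicate left out it was between 3 and 5, at 3 without PELP1-KD replicate 1 and 3 without PELP1-KD replicate 3. It was larger, at 7, with at least 10 counts in every replicate, and 6 with voom, without a filter on low counts or with the replicate block. The count of lower genes among the transcription factors was 1 in DESeq2 and 1 without PELP1-KD replicate 1, and between 1 and 3 with a replicate left out. It was 4 without a filter on low counts or with the replicate block. The causes were not tested. Of 437 values for the 34 other genes that the naming rule picks, 406 kept their call, 30 lost it, 1 gained it and 0 reversed. FAT4, ZEB2, PKP4, CTNND1 and ESRP2 were the most often lost, followed by PCSK6 and PCDH18. No pairing by replicate number was visible, as deviations of same-numbered replicates correlated at 0.039, 0.065 and -0.078. Those of differently numbered replicates correlated between -0.12 and 0.09. This check cannot exclude a pairing in the experiment. With the replicate block the log2FC of CDH11 was -4.265, and 3 cadherins were lower and 1 higher. Members with under about 10 counts per replicate are limited by depth.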
